A study of Homo sapiens with 12 samples.

Results

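L1PA7 and L1PA8 are 2 old primate-specific subfamilies of the LINE-1 (L1) retrotransposon. The loci described here were the rows of the L1 tables whose subfamily was given as L1PA7 or L1PA8. This rule uses no measured value, although earlier results of these data were known when it was chosen. They came to 936 of 6437 full-length L1 loci, 772 of them L1PA7 and 164 L1PA8. RNA was sequenced from HAP1, an established near-haploid human cell line derived from a chronic myelogenous leukaemia, as wild type and as a SETDB1 knockout derivative made in the same line. The series held 12 libraries in 4 groups of 3. The 6 with L1 tables, 3 wild-type and 3 knockout, were made with a kit that does not mark strand and are used here, and the 6 made with a directional kit are not used here. No label gave the knockout allele, the number of knockout clones or any treatment.

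A full-length L1 carries its own promoter at its 5′ end, followed by reading frames for an RNA-binding protein and for an endonuclease with reverse transcriptase, and it spreads by copying its RNA back into the genome. In the L1PA series a higher number marks an older subfamily, so that L1PA7 and L1PA8 copies are long immobile and have gathered mutations, whereas L1HS is the youngest. SETDB1 is a histone methyltransferase that places the silencing mark H3K9 trimethylation on retroelements. It is brought there by TRIM28 with KRAB zinc finger proteins, or by the HUSH complex through its partner ATF7IP.

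An annotated exon ran into 24 of the 936 loci. Only 3 copies lay wholly inside an exon (GENCODE 29, GRCh38), those in C12orf45, RPAP2 and FRK, of 6426, 6083 and 6460 bases. Aligned with each other, they were 88.6% identical between C12orf45 and RPAP2, 88.5% between C12orf45 and FRK, and 87.5% between RPAP2 and FRK. No strand was given for the loci, so the strand with more A than T was taken as that of the element. By this base composition the RPAP2 copy was placed on the strand of its gene, and the C12orf45 and FRK copies on the opposite strand. With a kit that does not mark strand, reads of the gene and reads of the element cannot be told apart there.

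Over the whole set, loci were 6002 to 8130 bases long with a median of 6423. Chromosome X held 107 of them (11.4%), and chromosomes 4 and 5 followed with 95 and 84. Annotated genes contained 426 loci (45.5%, against 46.6% of the other L1 loci). Reads were far less evenly spread. No read was found in any library at 437 loci (46.7%), against 11.1% of the other L1 loci, which were counted in the same tables. How reads that align to several copies were counted is not given in the sources used here, so reads at single loci are uncertain to that extent. The remaining 499 loci held 18998 reads in all, 92.8% of them at loci inside genes (72.5% for the other L1 loci). The locus with the most reads took 9.41% of this total, and the 5 with the most took 25.5%. In single libraries, 229 to 261 loci had a read in wild-type cells and 263 to 267 in the knockout. A locus at 0 could have held up to 3 reads, which covers counting error only. Levels are given for 1000000 gene counts in that library (RPM for reads at loci, CPM for genes), and 3 reads were 0.294 to 0.336 RPM.

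SETDB1 itself had 651, 543 and 519 gene counts in the wild-type libraries and 118, 106 and 118 in the knockout, so all knockout values lay below all wild-type values. Its log2 fold change was -2.39 (SE 0.08, edgeR adjusted p = 7e-43). The 6 libraries had 8921959 to 10199215 counts in genes and 25762 to 42626 L1 reads. The gene counts of the 3 knockout libraries, labelled as biological replicates, differed by no more than sampling noise (chi-square per degree of freedom 0.956 to 0.991), whereas those of the wild-type libraries were at 1.03 to 2.00. At the L1PA7 and L1PA8 loci the corresponding values were 1.14 to 1.45 and 1.30 to 1.64. Nothing states that the libraries came from separate cultures, so that the p-values below measure the spread between libraries, which may be technical. Blood cell markers were nearly absent (CD33, SPI1 and MPO at 0 in all libraries, the summed level of 6 markers at 0 to 0.196 CPM), although the label names a leukaemia. BCR and ABL1, the fusion partners of that leukaemia, were expressed and also moved with the knockout, with a summed level of 46.7 to 49.2 CPM in the wild-type libraries and 87.7 to 93.7 in the knockout libraries. Of the fibroblast markers only COL1A1 was expressed, with DCN and LUM at 0 and a summed level of 5 markers at 16.2 to 17.3 in wild-type cells and 17.7 to 19.6 in the knockout. The summed level of 4 epithelial markers moved with the knockout, from 141 to 155 in the wild type to 205 to 217, with EPCAM going from 29, 32 and 45 to 399, 386 and 394 counts and KRT8 from 83.1 ± 6.19 to 115 ± 4.15 CPM. The other two did not follow, KRT18 being at 59.1 ± 2.92 and 55.4 ± 0.83 CPM and CDH1 at 8, 12 and 11 against 3, 8 and 1 counts. The part of these markers in the results below was not tested.

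Does loss of SETDB1 raise RNA from the L1PA7 and L1PA8 loci as a group? In RPM, the summed level was 295, 286 and 300 in wild-type cells and 356, 354 and 361 in the knockout. All knockout libraries were above all wild-type libraries (294 ± 7.11 against 357 ± 3.42, SD, n = 3 each), a 1.22-fold difference. A two-sided exact permutation test gave p = 0.1, below which a comparison of 3 with 3 libraries cannot go. In these bulk samples more RNA per cell and more cells with such RNA cannot be told apart. A single L1PA7 locus, in an intron of TMC1, made up nearly all of the difference. Without this locus the level was 293 ± 7.39 in wild-type cells and 298 ± 3.39 in the knockout, the groups overlapped and the exact permutation p was 0.5.

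The sums were also taken for each subfamily. L1PA7 loci summed to 259 ± 4.39 and 313 ± 2.47 RPM (log2 fold change 0.27, exact permutation p = 0.1), but to 258 ± 4.61 and 254 ± 2.29 without the TMC1 locus (log2 fold change -0.02, exact permutation p = 0.3). L1PA8 loci had 36.2, 31.0 and 36.4 RPM in wild-type cells and 44.1, 42.5 and 44.7 in the knockout, without overlap. This was 1.27-fold, and without its own leading locus, in ZNF676, the L1PA8 sum was still higher in all 3 knockout libraries (32.4 ± 2.496 against 38.0 ± 1.37, exact permutation p = 0.1). The log2 ratio of L1PA8 to L1PA7 reads, which tests the difference between the subfamilies, was -2.91 ± 0.11 in wild-type cells and -2.84 ± 0.03 in the knockout (exact permutation p = 0.5). This result rested on the TMC1 locus. Without it the log2 ratio was -2.91 ± 0.11 and -2.54 ± 0.02, higher in all 3 knockout libraries (exact permutation p = 0.1). The TMC1 locus was left out for its reads, nearly all of them from the knockout, while the ZNF676 locus was kept. This ratio therefore cannot decide whether the subfamilies differ. For loci outside annotated genes the log2 ratio was -3.51 ± 0.82 and -3.12 ± 0.08, with overlap (exact permutation p = 0.4).

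**Figure D1:**
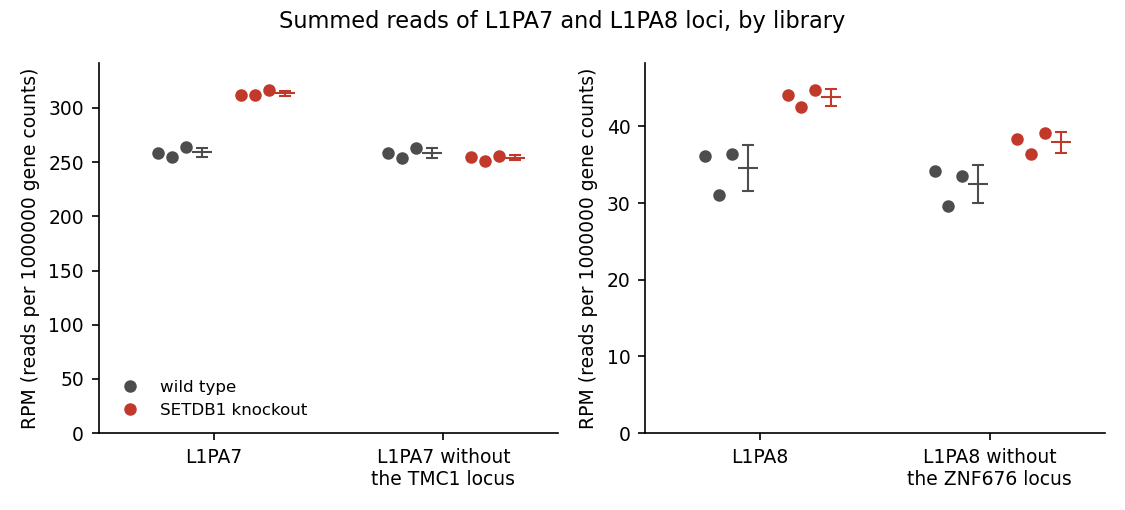
Summed RPM of L1PA7 loci (left) and L1PA8 loci (right) in each of 3 wild-type and 3 SETDB1 knockout libraries, with and without the locus that holds the most reads. Points are libraries, and bars give the mean and SD. The L1PA7 groups are apart with the TMC1 locus and overlap without it, whereas the L1PA8 groups stay apart in both cases.

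Loci outside annotated genes, whose reads cannot come from an annotated host transcript, gave a smaller sum. It was 20.6, 19.4 and 22.2 RPM in wild-type cells and 25.8, 26.3 and 25.9 in the knockout, 1.25-fold higher without overlap (exact permutation p = 0.1). L1PA7 loci outside genes had 19.0 ± 2.21 and 23.3 ± 0.17, also without overlap (exact permutation p = 0.1). L1PA8 loci outside genes had 1.27, 2.80 and 1.28 RPM against 2.66, 2.86 and 2.56, with overlap (exact permutation p = 0.3). Of the L1PA8 reads, 94.3% were at loci inside genes. The 862 loci too thinly covered to be tested one by one summed to 53.2 ± 3.92 and 62.2 ± 2.85, which was 1.17-fold (exact permutation p = 0.1).

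Among L1 reads, the same loci held a smaller share in the knockout libraries. L1PA7 and L1PA8 held 9.65, 9.91 and 10.1% of all L1 reads in wild-type cells and 8.36, 8.37 and 8.60% in the knockout, and without the TMC1 locus 9.85% ± 0.204 and 7.14% ± 0.109. Both sets of values were without overlap (exact permutation p = 0.1). The other L1 loci went from 2680 ± 78.3 to 3874 ± 37.0 RPM (1.45-fold). Outside genes, the share of L1PA7 and L1PA8 in L1 reads was 3.08% ± 0.203 in wild-type cells and 2.22% ± 0.024 in the knockout. These shares compare loci within a library and do not depend on how libraries are scaled.

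The direction of the sums differed between scaling by gene counts and the deposited scaling. With TMM or DESeq2 scaling of the gene table the log2 fold change of the sum was 0.27, beside 0.28 in RPM. In the deposited values, which the authors had divided by 1 factor per library, the summed level of L1PA7 and L1PA8 was 3136 ± 26.0 in wild-type cells and 2983 ± 72.1 in the knockout, lower by 0.07 on the log2 scale (exact permutation p = 0.1). A single read stood for 1.04 to 1.22 deposited units in wild-type libraries and 0.835 to 0.856 in knockout libraries. The libraries held 25762 to 31136 and 41474 to 42626 L1 reads, so the factor was larger where L1 reads were more. What the factor was computed from is not given. The median log2 fold change of all L1 loci tested was 0.37 in RPM and 0.04 on the deposited values.

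Enough reads for a test of the single locus were present at 74 of the 936 loci, 59 of L1PA7 and 15 of L1PA8. A locus could enter through either group, so these are the expressed loci and not a sample of all. Of the loci called, the copies in TMC1, FTX and on chromosome 2 entered through the knockout group only. The TMEM108 copy entered through the wild-type group only. For these copies the call is not independent of how they entered. Of the 74, 71 lay in genes. Their log2 fold changes had a median of 0.05, against 0.37 for all 816 L1 loci tested, and 50 were below 0.5 in size. By limma, 5 loci rose and 6 fell at an adjusted p of 0.05, among all L1 loci tested. Over all L1 loci, 30.1% rose and 4.29% fell. On the deposited values 3 of the 74 were higher and 14 lower, against 156 and 76 of all 816. The 3 knockout values were apart from the 3 wild-type values at 21 of the 74 loci, 12 higher and 9 lower, where 44.7% of all L1 loci tested were apart.

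**Figure D2:**
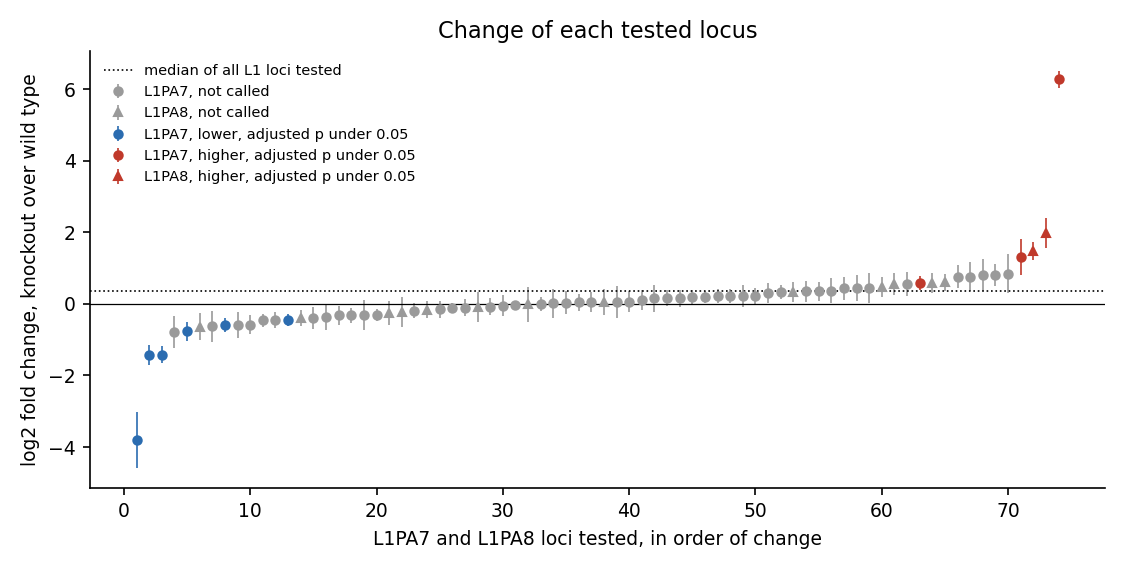
Log2 fold change of RPM + 0.1, knockout over wild type, for the 74 L1PA7 (circles) and L1PA8 (triangles) loci tested, in order. Bars are the standard error from limma, colours mark adjusted p under 0.05, and the dotted line is the median of all 816 L1 loci tested (0.37). The 74 loci lie around 0 with a median of 0.05, and 1 L1PA7 locus stands far above the others at 6.29.

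The largest rise was at the L1PA7 copy in an intron of TMC1 (chromosome 9, 72710787 to 72717219, hg38). TMC1 encodes a subunit of the mechanotransduction channel of inner ear hair cells. The locus had 4, 10 and 6 reads in wild-type cells and 559, 591 and 617 in the knockout, or 0.717 ± 0.371 and 59.4 ± 1.93 RPM. This was 82.8-fold, with a log2 fold change of 6.29 (SE 0.24, limma adjusted p = 1.5e-13). The gene counts of TMC1 were 147, 134 and 128 in wild-type cells and 481, 484 and 521 in the knockout. In the knockout they were below the reads at this single copy, so they cannot contain all of those reads. Gene and locus were thus counted by different rules or over different regions, which are not given here. TMC1 rose by 1.79 on the log2 scale (SE 0.08, edgeR adjusted p = 2.4e-35), and the median log2 fold change of the 14 tested genes within 2.5 Mb was 0.09.

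Both L1PA8 loci that rose lay in genes that also rose. The copy in FTX, a non-coding RNA gene of the X-inactivation centre, was at chromosome X, 74071990 to 74078510. It had 4, 3 and 7 reads in wild-type cells and 24, 14 and 28 in the knockout, a log2 fold change of 1.98 (SE 0.43, limma adjusted p = 0.00147). Counting the 3 knockout libraries as 1 sample, which was added after their likeness was seen, its adjusted p was 0.133, and over its alternatives it ranged from 1.4e-04 to 0.133. FTX had a log2 fold change of 0.63, and 20 of the 22 tested genes within 2.5 Mb were positive with a median of 0.29. An untested L1PA7 copy in the same gene had 0, 3 and 1 reads in wild-type cells and 9, 2 and 3 in the knockout. The copy in ZNF676, a KRAB zinc finger gene, was at chromosome 19, 22184057 to 22190330. It had 20, 13 and 27 reads in wild-type cells and 56, 60 and 57 in the knockout (log2 fold change 1.48, SE 0.25, limma adjusted p = 1.3e-04). ZNF676 rose by 1.27, and 53 of the 54 tested genes within 2.5 Mb had a positive log2 fold change, with a median of 0.79.

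The remaining rises were small or rested on few reads. An L1PA7 copy outside annotated genes, at chromosome 2, 173559612 to 173566058 and 9052 bp from the nearest gene, had 4, 3 and 5 reads in wild-type cells and 10, 12 and 13 in the knockout. Its log2 fold change was 1.31 (SE 0.50, limma adjusted p = 0.0493) and its adjusted p lay between 0.012 and 0.469 over the alternatives, 15 of which ended the call. The L1PA7 copy in SHROOM3, which encodes an actin-binding regulator of cell shape, was at chromosome 4, 76477676 to 76484153. It had 43, 31 and 32 reads in wild-type cells and 50, 56 and 60 in the knockout (log2 fold change 0.58, limma adjusted p = 0.0275, 0.021 to 0.417 over the alternatives, 8 of which ended the call). SHROOM3 itself rose by 0.30 on the log2 scale (edgeR adjusted p = 1.5e-09). Relative to its gene the copy was at 0.27 and did not pass (limma adjusted p = 0.57).

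The 6 loci that fell were all L1PA7. The largest fall was at the copy in TMEM108 (chromosome 3, 133201312 to 133207435), which encodes a transmembrane protein. It had 20, 13 and 15 reads in wild-type cells and 0, 0 and 1 in the knockout, a ratio of 50.05 over the summed reads with an exact 95% counting interval of 8.56 to 2017. TMEM108 fell with it (edgeR adjusted p = 7.8e-40). The gene had 217, 191 and 180 gene counts in wild-type cells and 0, 1 and 3 in the knockout. An L1PA4 copy in the same gene had 20, 13 and 17 reads against 0, 6 and 5 and also fell (log2 fold change -2.39, limma adjusted p = 0.00762).

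At the L1PA7 copy in SNX13 the locus fell, and its gene did not pass the test. SNX13 encodes a sorting nexin, a protein of endosomal trafficking, and the copy lies at chromosome 7, 17806657 to 17813125. It had 33, 29 and 53 reads in wild-type cells and 13, 14 and 14 in the knockout, without overlap, and a log2 fold change of -1.44 (SE 0.28, limma adjusted p = 5.8e-04). SNX13 had 373, 296 and 338 gene counts against 328, 321 and 380, a log2 fold change of -0.04 (edgeR adjusted p = 0.69).

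The copy in RYR2, the ryanodine receptor calcium channel of heart muscle, fell where most neighbouring genes were lower too. It lies near the end of the gene, at chromosome 1, 237820214 to 237826650, and had 76, 83 and 68 reads in wild-type cells and 19, 33 and 38 in the knockout. Its log2 fold change was -1.42 (SE 0.23, limma adjusted p = 1.1e-04). RYR2 had a log2 fold change of -0.92, and 17 of the 18 tested genes within 2.5 Mb were negative with a median of -0.48. An L1HS copy near the start of RYR2 had a log2 fold change of 0.32 and did not pass (limma adjusted p = 0.52).

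The other 3 falls were below 1 on the log2 scale. An L1PA7 copy outside genes, at chromosome 14, 30404509 to 30410867 and 27125 bp from the nearest gene, had 42, 27 and 42 reads against 16, 24 and 27 (log2 fold change -0.77, limma adjusted p = 0.0277). The copy in NBDY, whose product is a microprotein of the mRNA decapping machinery, touches an exon of that gene at chromosome X, 56805825 to 56812210. It had 75, 51 and 76 reads against 53, 48 and 37 (log2 fold change -0.59, limma adjusted p = 0.0282), beside -0.46 for NBDY. Of the 17 tested genes within 2.5 Mb of it, 14 were negative with a median of -0.38, and subtracting this left -0.21. The copy in ADK, which encodes adenosine kinase, at chromosome 10, 74603261 to 74609701, had 79, 74 and 77 reads against 55, 56 and 64 (log2 fold change -0.45, limma adjusted p = 0.0377), beside -0.36 for ADK. These calls ended under 5, 7 and 11 of 20 alternatives. The subtraction of neighbouring genes, 1 of the 20, has no test and could not end a call. With the 3 knockout libraries kept as 3 samples, adjusted p reached 0.134, 0.154 and 0.125 by limma.

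**Figure D3:**
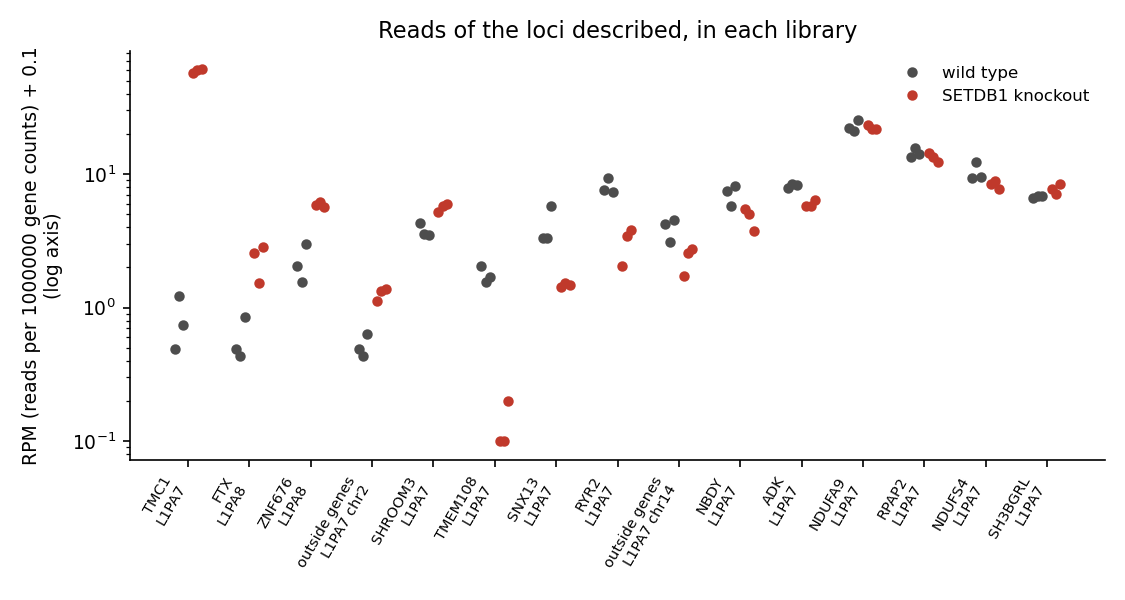
RPM + 0.1 (log axis) of the 15 loci described, in 3 wild-type (grey) and 3 SETDB1 knockout (red) libraries. Each point is a library, and labels give the host gene and the subfamily. The TMC1 copy lies near 1 in wild-type cells and near 60 in the knockout, and the TMEM108 copy falls to the level of no reads. The strongly covered copies in NDUFA9, RPAP2, NDUFS4 and SH3BGRL differ little, although the groups do not overlap in NDUFS4 (lower) and SH3BGRL (higher).

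The 3 highest levels in wild-type cells were at loci that did not pass the test. The L1PA7 copy in NDUFA9, a gene for a subunit of respiratory complex I (chromosome 12, 4671945 to 4678293), had 226, 187 and 236 reads in wild-type cells and 228, 213 and 220 in the knockout. Its log2 fold change was -0.03 (SE 0.11), with overlapping groups, beside -0.37 for the gene. The RPAP2 copy that lies inside an exon (chromosome 1, 92388403 to 92394485) had 136, 138 and 132 reads against 139, 130 and 124 (log2 fold change -0.11, SE 0.13). RPAP2 encodes a phosphatase of RNA polymerase II, and its own log2 fold change was 0.05. The copy in NDUFS4, another complex I gene (chromosome 5, 53625890 to 53632164), had 95, 109 and 88 reads against 81, 86 and 78, with log2 fold changes of -0.31 for the locus and -0.34 for the gene. The copy in SH3BGRL (chromosome X, 81265209 to 81271382) had 67, 60 and 63 reads against 75, 69 and 85, a log2 fold change of 0.20. In RPM the groups did not overlap at the copies in NDUFS4 (lower in the knockout) and SH3BGRL (higher), although neither passed the test. On the deposited values the copies in NDUFA9, RPAP2 and NDUFS4 passed as lower (limma adjusted p = 0.0103, 0.0107 and 0.00422).

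Because most reads lay inside genes, each locus was set against its host gene, the overlapping gene with the most counts. Whether gene counts include reads at loci in introns is not given, so the locus need not be a part of the host value. A tested host was present for 68 of the 74 loci, in 64 genes. Many host genes were called themselves. A total of 42 of the 68 loci had a host called by edgeR (21 higher and 21 lower, where 51.5% of all 13778 genes were called), and at 40 of these 42 the locus had the sign of its host. No like count was made for the other L1 loci with a called host. With hosts not called included, the sign was shared at 55 of the 68 loci (80.9%), against 381 of 540 other L1 loci (70.6%). Over the 68 loci, the log2 fold change of the locus and of the host had a Pearson correlation of 0.72 and a Spearman correlation of 0.78. Without the 2 loci of the largest change these were 0.75 and 0.76 over 66 loci, and without loci that touch an exon 0.72 and 0.78 over 63. For 540 other L1 loci they were 0.62 and 0.55. Loci and hosts come from the same libraries with the same gene totals, and 8 loci share 4 hosts, so these values are descriptions.

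**Figure D4:**
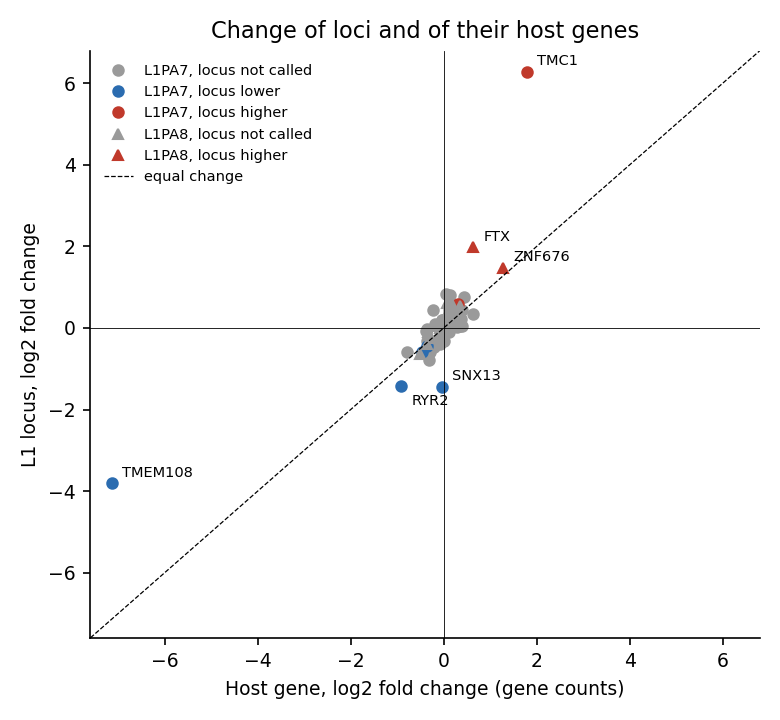
Log2 fold change of 68 L1PA7 (circles) and L1PA8 (triangles) loci against that of their host genes, knockout over wild type, with colours for loci called higher (red) or lower (blue) by limma. The dashed line marks equal change. Most loci lie near the line within 1 of 0, whereas the TMC1 copy lies far above it, and the SNX13 copy lies below it at a host change of -0.04.

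The 8 copies that share a gene had log2 fold changes of the sign of that gene, although of the 8 only the L1PA7 copy in ADK passed the test. In ADK an L1PA8 copy had a log2 fold change of -0.40 beside -0.45 for the L1PA7 copy, and in ME1, which encodes malic enzyme, a pair of L1PA7 copies had -0.32 and -0.46 beside -0.35 for the gene. An L1PA3 copy in ADK was at 0.00 with 45, 27 and 40 reads against 46, 28 and 43. In GPHN, which encodes the synaptic scaffold gephyrin, a pair of L1PA7 copies had -0.31 and -0.59 beside -0.30, and in INVS 0.06 and 0.45 beside 0.39.

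Relative to the host gene, 3 of the 68 loci passed the limma test, where 9.05% of all 608 L1 loci with a host did. The TMC1 copy gained 4.49 on the log2 scale over its gene (SE 0.32, limma adjusted p = 1.9e-04). The SNX13 copy lost 1.41 against its gene (log2 difference -1.41, SE 0.26, limma adjusted p = 0.0112), and this call ended without knockout replicate 1 (adjusted p = 0.0505 by limma) and with the 3 knockout libraries counted as 1 sample (adjusted p = 0.280 by limma). The TMEM108 copy was called higher relative to its gene (log2 difference 2.89, limma adjusted p = 7.9e-04), but both had at most 3 reads in any knockout library, so the difference compares values near the floor. With a pseudocount of 1 in place of 0.1 it was 2.89 as well, which does not lift this limit, since the knockout values stay near the floor. The FTX copy was at 1.36 over its gene and did not pass (limma adjusted p = 0.0663). It passed with the replicate number as a block (adjusted p = 0.0216 by limma), without wild-type replicate 3 (0.0294) and without knockout replicate 2 (0.0443).

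Copies read only in the knockout were few. A read in each knockout library and none in the wild type was found at 6 of the 936 loci, 5 of L1PA7 and 1 of L1PA8, against 2.16% of all 6437 L1 loci. The reverse was found at 3 loci, all L1PA7, against 0.202% of all L1 loci.

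Of 25 genes of the SETDB1 pathway, all tested, 11 rose and 8 fell in the knockout, with a median log2 fold change of 0.02. Over all 13778 genes tested, 3517 rose and 3572 fell (51.5% called in either direction), with a median of 0.00. Among SETDB1 and its partners ATF7IP rose from 57.2 ± 0.80 to 177 ± 5.13 CPM (log2 fold change 1.62, edgeR adjusted p = 3.7e-49), AGO2, an RNA-guided silencing protein, rose by 0.40, and TRIM28 fell by 0.11 on the log2 scale. Of HUSH and MORC2, 3 genes rose and 1 fell. TASOR (listed as FAM208A) rose by 0.30 and MORC2 by 0.27, while the TASOR relative TASOR2 (listed as FAM208B) fell by 0.19 on the log2 scale. The 3 KRAB zinc finger genes listed for binding L1PA elements all rose, ZNF649 and ZNF765 by 0.22 and 0.25. ZNF93 had 6, 4 and 5 counts in wild-type cells and 261, 237 and 258 in the knockout, a log2 fold change of 5.55 (edgeR adjusted p = 5.2e-42). SUV39H1, another H3K9 methyltransferase, fell by 0.74 on the log2 scale, the maintenance DNA methyltransferase DNMT1 fell by 0.23, and the de novo enzyme DNMT3B rose by 0.43.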

How the data were processed

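Per the labels, reads were processed by the authors with Trim Galore 0.4.4, STAR 2.6.0a, SAMtools 1.9, Picard 2.23.8, HTSeq 0.11.1, DESeq2 and bedtools on hg38. Roles, the strand setting, the treatment of reads with several alignments and the start convention of coordinates are not given in the sources used here. The deposited gene files hold raw counts (19.6 to 19.7% of listed reads, in no gene, in several or not unique, were left out of totals). The deposited L1 files hold a signal per locus, namely reads divided by 1 factor per library. Division by the smallest non-zero value gave whole reads for 100% of values (tolerance 0.0001), which were scaled to reads per 1000000 gene counts (RPM).

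Loci passing filterByExpr (minimum count 10, total 15) were tested with limma 3.58.1 on log2(value + 0.1), which understates changes of low loci, with Benjamini-Hochberg adjustment over 816 loci and a threshold of 0.05. The count model on the recovered reads (edgeR 4.0.16) called 5 higher and 6 lower. Genes were tested with edgeR's quasi-likelihood test after TMM scaling, and sums with exact permutation tests (scipy 1.17.1). DESeq2 1.42.0 and R 4.3.3 served the alternatives, and MAFFT 7.526 aligned copies. Scripts were tested on simulated data. All 58735 gene identifiers matched GENCODE 29. Loci named are, among called loci without overlap between groups, up to 12 rises and 8 falls of largest change, the 5 with the most reads, and the extremes against the host gene. Other genes named are the hosts, the pathway list and markers. Copies that share a host, the untested copy in FTX and other L1 copies in named hosts were added after their values were seen. Members and lists were chosen with earlier results of these data known. Replicate numbers did not pair libraries (correlations of deviations -0.003 to 0.018 at L1 loci). Element sequences are not reported here.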

Additional observations from a re-analysis of the deposited data

How the results depend on the processing

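With TMM or DESeq2 scaling the sums kept their direction. On the deposited values the log2 fold change was -0.072 for both subfamilies together, -0.081 for L1PA7 and -0.0096 for L1PA8. In RPM, the L1PA7 sum was at -0.025 without its leading locus and -0.013 without the 5 leading loci. The 11 loci called became 17 on the deposited values, 7 with a log2 fold change of at least 1 and 5 where at least 1 remained after subtracting neighbouring genes. Leaving out 1 library gave 7 to 9, with 7 without wild-type replicate 3, knockout replicate 2 or knockout replicate 3. With the replicate number as a block 9 loci were called by limma and 7 by edgeR, the latter added after seeing the data, and the sums kept their values (0.28 for both subfamilies together). Counting the 3 knockout libraries as 1 sample, also added later, gave 5 (2 higher, 3 lower) by a limma fit in which they are assumed to vary like the wild type: the copies in TMC1, ZNF676, TMEM108, SNX13 and RYR2, which passed in each alternative with a test. Why the other calls ended was not tested. Subtracting neighbouring genes, an alternative without a test, left the ZNF676 copy at 0.69 and the RYR2 copy at -0.94. Relative to their host genes these copies were at 0.20 and -0.51 and did not pass (limma adjusted p = 0.72 and 0.40). Depth limits the 862 loci that were too thinly covered to be tested singly.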
